A study of Mus musculus with 8 samples.

Results

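The cell cycle engine is described here over 49 listed genes, chosen by gene name: 12 that license and start DNA replication, 17 of the G2 and M phases, 9 G1 cyclins, CDKs and the phosphatase Cdc25a, 6 of the Rb and E2F switch and the checkpoint kinases, and 5 CDK inhibitors. A named probe was found for 44 of the 49 among the 16390 named genes and 23473 probes of the arrays, and each of the 44 had 1 named probe. Cdt1, Cdc45, Orc1, Gins1 and Cdk1 were matched through an older symbol. Ccnb1, Cdc25c, Ccnd1, Cdkn2b and Cdkn2d were not analysed here, so neither the main mitotic cyclin B, nor cyclin D1, nor the p15 and p19 inhibitors are covered. Mouse cells with a Nanog-GFP reporter were measured on 8 TORAY arrays, each read in Cy5 alone. The 4 groups of 2 arrays are primordial germ cells of stage E11.5 (E11.5 PGC), cells after 3 days of culture (Day3), cells after 6 days (Day6), and embryonic germ cells (EG). 2i+A83 stands in the title of each EG, Day6 and Day3 sample, which the labels spell out as 1 µM PD325901, which blocks MEK, 3 µM CHIR99021, which blocks GSK3, and 250 nM A83-01, which blocks the type I receptors for Activin, Nodal and TGF-beta, in medium with 15% KSR, LIF and bFGF. The same protocol text also stands on the E11.5 PGC samples, so the labels do not say which agents those cells met. The submitters mention FACS to enrich candidate pluripotent cells during culture, without the gate for each sample. The labels do not say whether the 2 arrays of a group come from separate animals, cultures or EG lines, so the p-values measure only the spread between these arrays, which may be technical.

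Progress through the cell cycle is driven by cyclins bound to cyclin-dependent kinases (CDKs). In G1, cyclin D with Cdk4 or Cdk6, then cyclin E with Cdk2, phosphorylate the Rb family and release E2F factors, which switch on genes for DNA replication. Origins are licensed when ORC, Cdc6 and Cdt1 load the Mcm2-7 helicase, which Cdc45 and GINS turn into its active form. Cyclin B with Cdk1, held back by Wee1 and released by Cdc25 phosphatases, drives entry into mitosis, where the spindle checkpoint proteins Bub1, Bub1b, Mad2l1 and Ttk delay the separation of chromosomes. The INK4 proteins (Cdkn2a to Cdkn2d) block Cdk4 and Cdk6, and Cdkn1b (p27) blocks mainly cyclin E and Cdk2. Mouse pluripotent stem cells are known for a short G1 phase, and germ cells of this embryonic stage are still dividing.

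Many replication genes are known E2F targets, and many mitotic genes carry a cell cycle homology region (CHR) with CCAAT boxes. The RefSeq promoter table (GRCm38.p6), which runs from 250 bases before to 50 after each gene's start, held a promoter for 36 of the 44 members. Of these, 4 had more than 1 promoter, and a gene was counted when any of its promoters held the word. A word of the E2F type (TTTCCCGC, TTTCGCGC, TTTGCCGC or TTTGGCGC, both strands) was found for 7 of 10 replication genes (70.0%) and 1 of 13 mitosis genes (7.69%), against 2.6% of the 27025 genes of the table. The CHR word TTTGAA (both strands) was found for 9 of 13 mitosis genes (69.2%) and 2 of 10 replication genes, against 20.2% of all genes. CCAAT (both strands) was found for 11 of 13 mitosis and 8 of 10 replication genes, against 41.1% of all genes. The 4 promoters printed here belong to 3 members whose level changed and to Ttk, a mitotic kinase with the CHR and CCAAT pair. Single promoters do not all follow the counts by role: Cdc45 lacks the E2F word and Cdc25b the CHR word. Capitals mark the words, and each sequence is written along the gene's own strand. Mcm6 (chr1:128359656-128359955, minus strand) has 3 E2F words and 2 CCAAT boxes, and the first pair of its E2F words, at -110 and -106 from the start, overlap on opposite strands. Cdc45 (chr16:18811923-18812222, minus strand) has no E2F word, 2 CHR words and 2 CCAAT boxes. Ttk (chr9:83834439-83834738, plus strand) has 1 CHR word and 2 CCAAT boxes. Cdc25b (chr2:131186698-131186997, plus strand) has 1 CCAAT box and neither of the other words. A word match describes the letters in this window and does not show that a factor binds there.
Mcm6: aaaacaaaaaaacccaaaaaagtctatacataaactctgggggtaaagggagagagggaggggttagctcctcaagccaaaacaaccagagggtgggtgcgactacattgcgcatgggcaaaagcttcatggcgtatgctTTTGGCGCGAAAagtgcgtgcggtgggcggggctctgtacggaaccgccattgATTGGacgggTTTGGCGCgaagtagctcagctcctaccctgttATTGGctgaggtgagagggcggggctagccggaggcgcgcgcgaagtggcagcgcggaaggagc
Cdc45: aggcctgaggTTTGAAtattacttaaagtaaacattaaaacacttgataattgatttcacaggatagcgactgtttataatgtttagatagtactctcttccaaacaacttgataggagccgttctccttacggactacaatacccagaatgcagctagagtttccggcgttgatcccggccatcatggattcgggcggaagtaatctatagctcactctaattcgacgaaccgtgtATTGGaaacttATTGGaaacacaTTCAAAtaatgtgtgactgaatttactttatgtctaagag
Ttk: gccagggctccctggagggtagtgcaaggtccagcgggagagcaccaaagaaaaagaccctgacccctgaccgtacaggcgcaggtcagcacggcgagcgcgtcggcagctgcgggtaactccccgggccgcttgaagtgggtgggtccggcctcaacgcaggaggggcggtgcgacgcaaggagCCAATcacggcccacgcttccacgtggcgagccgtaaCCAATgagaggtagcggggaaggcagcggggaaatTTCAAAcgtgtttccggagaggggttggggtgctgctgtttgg
Cdc25b: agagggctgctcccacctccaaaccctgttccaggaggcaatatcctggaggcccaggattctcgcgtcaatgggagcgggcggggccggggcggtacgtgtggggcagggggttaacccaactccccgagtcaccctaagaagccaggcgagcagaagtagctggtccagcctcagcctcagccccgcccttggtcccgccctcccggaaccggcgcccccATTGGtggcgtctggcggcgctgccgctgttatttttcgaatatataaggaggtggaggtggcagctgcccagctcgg

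Values are linear spot intensities scaled by the authors, with array medians of 19.99 to 20.01 and a value for 21126 to 22404 probes on each array. The file names in the labels fall into 2 array series: B holds the arrays numbered 2 of the E11.5 PGC, Day3 and Day6 groups, and A holds the other 5, which include both from EG. Over the 19524 probes measured on every array, the deviation of array 1 from its group mean correlated at 0.62 for Day3 with E11.5 PGC, 0.547 for Day6 with E11.5 PGC and 0.694 for Day6 with Day3. Results are therefore also given from a limma model that blocks on the array series (the blocked model), which for EG assumes that the series differ alike in all groups. The 10 germ cell markers summed to 18210 and 10910 (E11.5 PGC), 8766 and 7305 (Day3), 1641 and 4141 (Day6) and 2511 and 2067 (EG). The 10 pluripotent cell markers summed to 25800 and 23180 (E11.5 PGC), 34340 and 24410 (Day3), 34290 and 41220 (Day6) and 46310 and 54740 (EG). Dppa5a alone had 26510 and 28410 in EG, against 14000 and 11810 in E11.5 PGC. Dppa4 and Utf1 were lower in EG than in E11.5 PGC, and the other pluripotent markers higher. The 11 gonadal somatic markers summed to 49.6 to 89.8 over the 8 arrays, with 2 to 8 of them under 4.24 or without a value. The dimmest 25% of probes have a geometric mean over the arrays below 4.24. The 11 fibroblast markers summed to 986 and 1316 (E11.5 PGC), 2207 and 1605 (Day3), 5439 and 2452 (Day6) and 2628 and 1875 (EG). The 7 endothelial markers summed to 88.2 and 106 in EG, against 325 and 489.9 in E11.5 PGC. Most of the sum in E11.5 PGC came from Pecam1 (184.5 and 376.9) and Cldn5 (105.4 and 80.7), while Tek was higher in EG. The 4 measured blood markers summed to 499 and 582 in EG, against 121 and 124 in E11.5 PGC. Of these 4, Cd68 and Laptm5 were higher in EG than in E11.5 PGC, and Tyrobp and Ptprc lower. The part of these cell type markers in the cell cycle values was not tested.

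Few members were called without a block on the array series. A call is a limma adjusted p under 0.05, with Benjamini-Hochberg adjustment over all probes tested in a comparison. Changes are differences of mean log2 intensity, given ± SE, with 2 arrays in each group. In EG against E11.5 PGC, 1 of 43 members rose (2.33%) and 3 fell (6.98%), where 5.57% of all 20761 probes rose and 5.61% fell, so the share of members called lay near that of all probes. The 3 that fell were Mcm6, Cdc45 and Ccne2, and the 1 that rose was Cdc25b. Each of these 4 calls was lost when either E11.5 PGC array or either EG array was left out, and that of Mcm6 also without either Day3 array. RNA came from whole cell populations, so fewer cycling cells and less RNA per cell cannot be told apart in any of these values. In the blocked model, 2 members rose (4.65%) and 15 fell (34.9%), against 9.24% and 14.4% of all probes. That count also rested on single arrays: without E11.5 PGC array 1, EG array 1 or EG array 2 the blocked model called only Cdc25b, and without E11.5 PGC array 2, Day3 array 1 or Day3 array 2 it called 6 members.

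The median log2 change of the 43 members was -0.48 in EG against E11.5 PGC, beside -0.16 for all probes. Both EG arrays lay below both E11.5 PGC arrays for 27 members (62.8%; 39.9% of all probes) and above them for 8 (18.6%; 24.3% of all probes). Of the 43 members with a value on every array, 21 had their highest group mean in E11.5 PGC and 23 their lowest in EG. The same counts over all probes were not made, so these 2 counts do not set the members apart. Group means of a member spanned 0.88 on the log2 scale at the median (0.81 over all probes), from 0.07 for Cdt1 to 2.13 for Bub1. The map of all members by array shows the low replication genes in EG and the members that follow the array series.

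**Figure D1:**
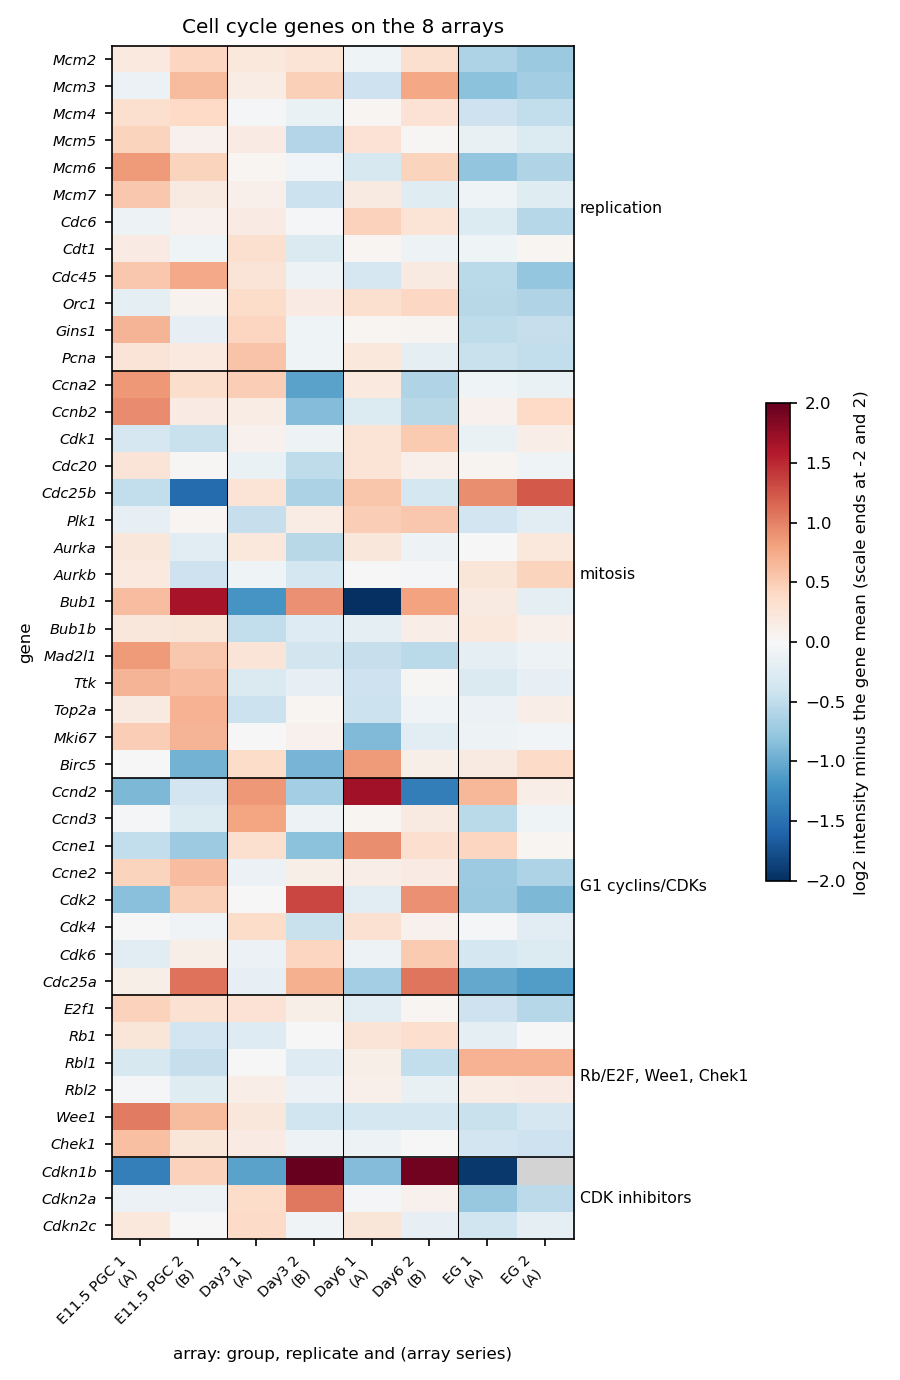
Log2 intensity of the 44 measured cell cycle genes, minus the mean of each gene, on the 8 arrays in order of stage; letters in brackets give the array series, and grey marks a missing value. The replication rows are mostly red or pale in E11.5 PGC and mostly blue in EG. Both EG arrays lie below both E11.5 PGC arrays for 11 of 12 (91.7%, against 39.9% of all probes). Bub1, Cdk2 and Cdkn1b alternate with the array series.

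No member was called by limma in the 4 other comparisons. The percentages of all probes beside the counts that follow refer to calls. The share of all probes at an unadjusted p under 0.05 was not counted, here or below. At Day3 against E11.5 PGC, 0 of 44 were called (4 at an unadjusted p under 0.05), where 1.33% of 20678 probes rose and 0.754% fell. At Day6 against E11.5 PGC, 0 of 44 were called (7 at an unadjusted p under 0.05), where 4.34% of 20136 probes rose and 4.28% fell. At Day6 against Day3, 0 of 44 were called (0 at an unadjusted p under 0.05), and 0.0% of 20015 probes passed in either direction. In EG against Day6, 0 of 43 were called (7 at an unadjusted p under 0.05), where 0.139% of 20103 probes rose and 0.0298% fell. In the blocked model, Cdk2 rose at Day3 against E11.5 PGC (4.34% of all probes rose and 4.0% fell), a call that was lost without any 1 of the 8 arrays. The blocked model raised the count at Day6 against E11.5 PGC to 4 that rose (9.09%; 9.5% of all probes) and 7 that fell (15.9%; 14.3% of all probes). That count was 0 without E11.5 PGC array 1 or Day6 array 1, 3 without E11.5 PGC array 2, 6 without either EG array, 7 without Day6 array 2 and 8 without either Day3 array. The blocked model called no member at Day6 against Day3 (0.974% and 0.829% of all probes rose and fell) or in EG against Day6 (1.25% and 0.716%). These comparisons share groups, so their values are not independent of each other.

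**Figure D2:**
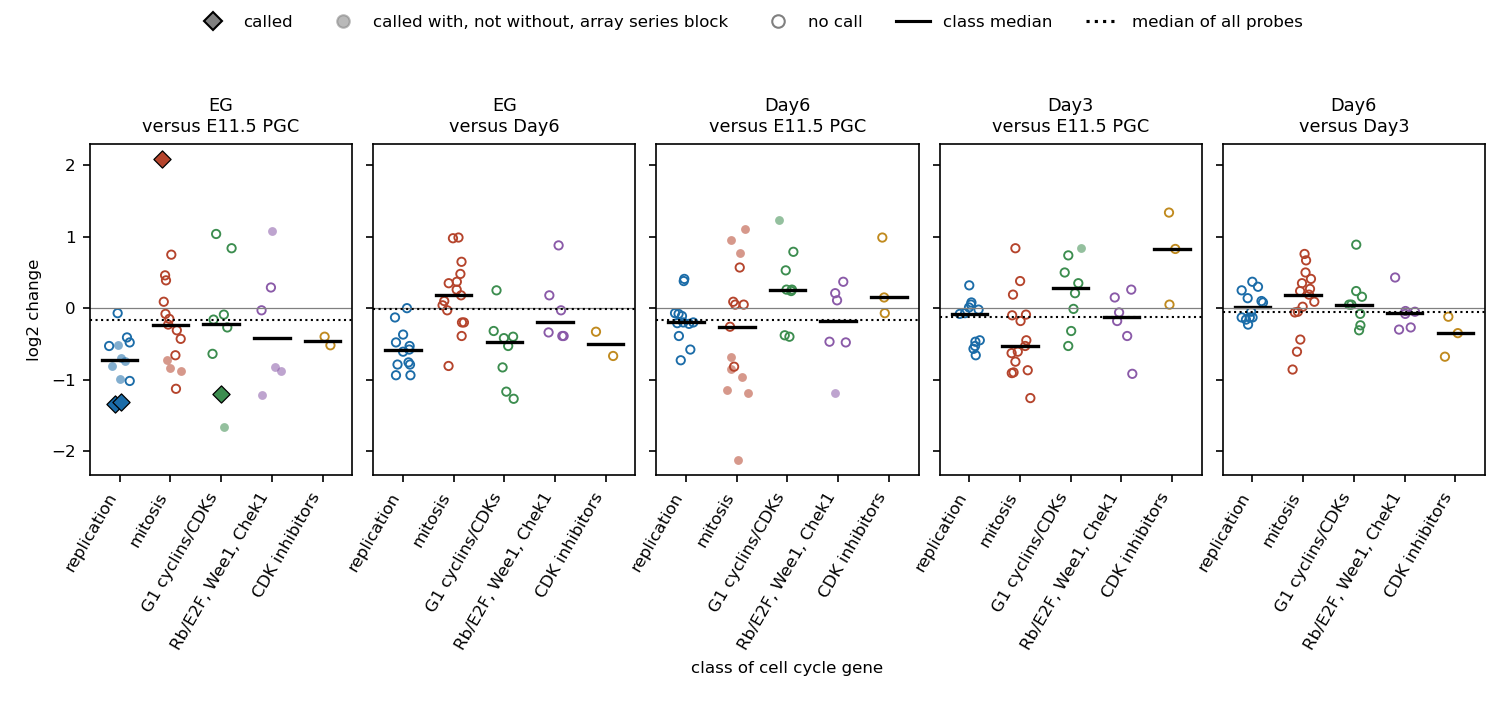
Log2 change of each tested cell cycle gene (points) by class, in 5 comparisons; diamonds mark calls, filled circles calls of the blocked model that the fit without a block did not make, bars class medians and the dotted line the median of all probes. In EG against E11.5 PGC the replication points lie between -1.34 and -0.07 with a median of -0.72, while the mitosis points spread from -1.13 to 2.09.

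The replication genes lay lower in EG than in E11.5 PGC. Of the 12, 2 were called lower (16.7%, against 5.61% of all probes) and 0 higher (5.57% of all probes). With the block 7 of the 12 fell (58.3%, against 14.4% of all probes). These 7 calls were lost without E11.5 PGC array 1 or either EG array. Without E11.5 PGC array 2 only those of Mcm6 and Gins1 remained, and without either Day3 array only that of Cdc45. The blocked calls of Mcm7 and Pcna were lost without any 1 of the 8 arrays. Mcm6, a subunit of the helicase, and Cdc45, its activator, were 2.54-fold and 2.47-fold lower in EG. Both EG arrays lay below both E11.5 PGC arrays for 11 of the 12 genes (91.7%, against 39.9% of all probes), and below both Day6 arrays for 10 of the 12 (83.3%, against 22.8% of all probes). The median log2 change was -0.72 against E11.5 PGC (-0.16 for all probes) and -0.59 against Day6 (-0.01 for all probes). Leaving out 1 array moved the median against E11.5 PGC between -0.72 and -0.66, quantile normalization gave -0.57 (-0.1 for all probes, with Cdt1 turning above 0), and series A alone gave -0.71. At Day3 and Day6 the medians against E11.5 PGC were -0.08 and -0.2, beside -0.13 and -0.16 for all probes.

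Mcm6 had intensities of 2367 and 1773 (E11.5 PGC), 1341 and 1254 (Day3), 1051 and 1780.2 (Day6) and 755 and 863 (EG). Mcm6 fell 2.54-fold in EG against E11.5 PGC (log2 change -1.34 ± 0.34 SE, adjusted p = 0.0465, limma). Its Day6 arrays lay far apart, 1 at the level of E11.5 PGC array 2 and 1 below both Day3 arrays. Cdc45 had 1400.0 and 1628 (E11.5 PGC), 1152 and 893 (Day3), 760.4 and 1088 (Day6) and 660.4 and 565 (EG). Cdc45 fell 2.47-fold in EG against E11.5 PGC (log2 change -1.31 ± 0.30 SE, adjusted p = 0.0372, limma). Quantile normalization ended both calls (adjusted p = 0.0987 for Mcm6 and 0.0925 for Cdc45, limma, where the 16 alternatives ran from 0.0274 to 0.242 and from 0.0219 to 0.236). Every cultured or EG array of Cdc45 lay below both E11.5 PGC arrays. Mcm2, another helicase subunit, had 469.6 and 548 (E11.5 PGC), 474 and 494 (Day3), 386 and 508 (Day6) and 267 and 244 (EG). Mcm2 fell in EG against E11.5 PGC with the block (log2 change -0.88 ± 0.21, adjusted p = 0.0298, limma; 0.0597 without the block). Its E11.5 PGC, Day3 and Day6 arrays overlapped, and the 2 EG arrays stood below all of them.

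Mcm4 had 1650.2 and 1735 (E11.5 PGC), 1286 and 1196 (Day3), 1351 and 1613 (Day6) and 989.7 and 939 (EG). Mcm4 fell in EG against E11.5 PGC with the block (log2 change -0.77 ± 0.21, adjusted p = 0.0432, limma; 0.0864 without the block). Mcm7 had 3647 and 2859 (E11.5 PGC), 2688 and 1866 (Day3), 2840.0 and 2139 (Day6) and 2378 and 2135 (EG). Mcm7 fell in EG against E11.5 PGC with the block (log2 change -0.73 ± 0.21, adjusted p = 0.0461, limma; 0.341 without the block). Both are helicase subunits, and for both the EG arrays lay below both E11.5 PGC arrays, while an EG value of Mcm7 lay between its 2 Day6 values. Gins1, a subunit of the GINS complex, had 1185 and 661 (E11.5 PGC), 997 and 700.0 (Day3), 760.1 and 769 (Day6) and 521 and 540.1 (EG). Gins1 fell in EG against E11.5 PGC with the block (log2 change -0.96 ± 0.27, adjusted p = 0.046, limma; 0.232 without the block). The 2 E11.5 PGC arrays of Gins1 differed by more than EG and E11.5 PGC array 2 did. Pcna, the sliding clamp of the polymerases, had 8438 and 8064 (E11.5 PGC), 10406 and 6610.1 (Day3), 8166 and 6119 (Day6) and 5162 and 4997 (EG). Pcna fell in EG against E11.5 PGC with the block (log2 change -0.89 ± 0.23, adjusted p = 0.0379, limma; 0.207 without the block). The Pcna arrays of EG were the lowest of the 8.

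Mcm5 had 1324 and 1023 (E11.5 PGC), 1087 and 645 (Day3), 1178 and 988 (Day6) and 872 and 799.8 (EG). For Mcm5, the log2 change in EG against E11.5 PGC was -0.48 ± 0.33 (adjusted p = 0.413, limma). Day3 array 2 was its lowest value, so the low values of Mcm5 were not limited to EG. Cdc6, the loading factor, had 229 and 261 (E11.5 PGC), 277 and 239 (Day3), 339.9 and 297 (Day6) and 203 and 167 (EG). For Cdc6, the log2 change in EG against E11.5 PGC was -0.41 ± 0.27 (adjusted p = 0.379, limma). It was highest at Day6 and lowest in EG, without a call in any comparison. Mcm3 and Orc1 were lower on both EG arrays than on any other array, with log2 changes against E11.5 PGC of -1.02 and -0.53 and no call with or without the block. Cdt1, the licensing factor that is removed once replication starts, stood apart with a log2 change of -0.07 and overlapping arrays.

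**Figure D3:**
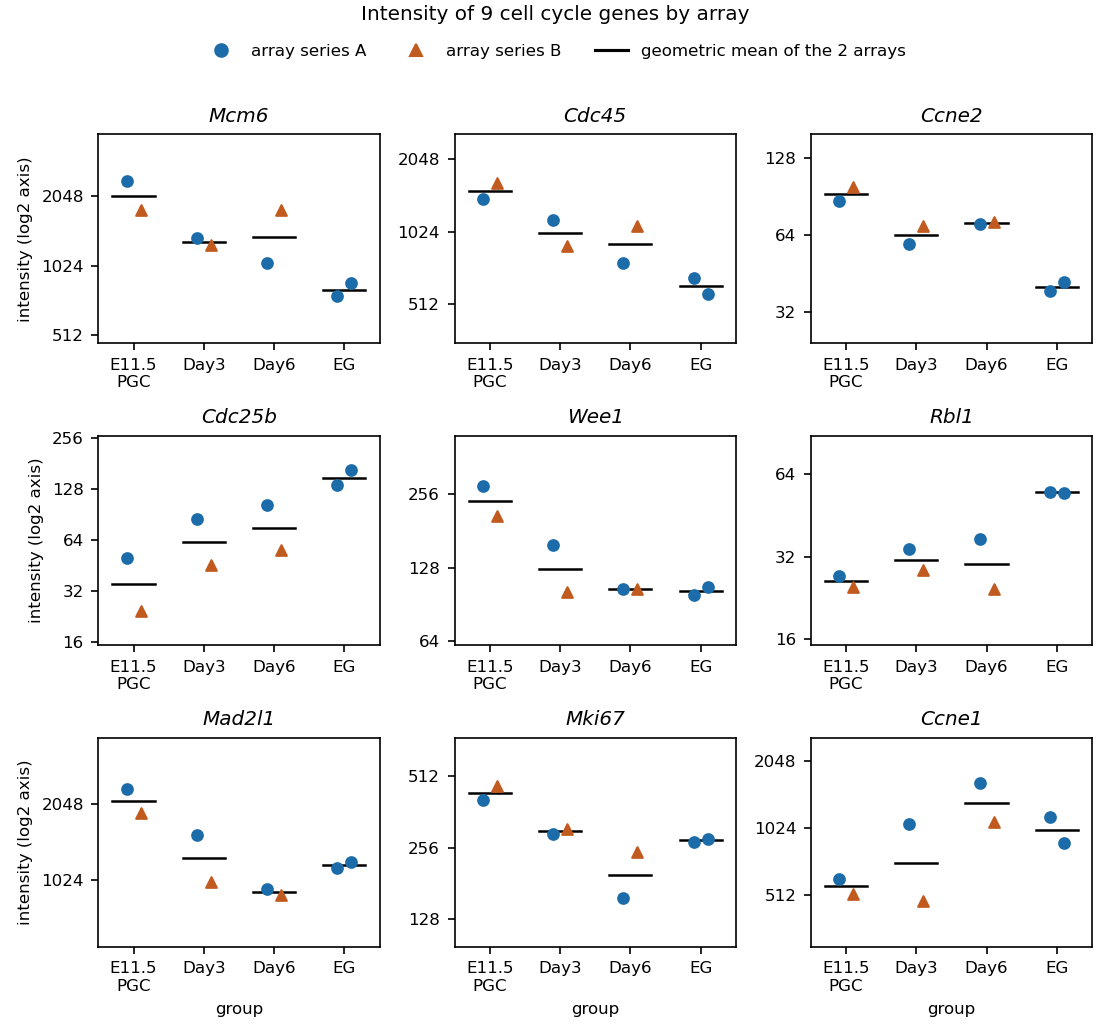
Intensity (log2 axis) of 9 cell cycle genes on each array; circles are array series A, triangles series B, and bars the geometric mean of the 2 arrays. For Mcm6, Cdc45 and Ccne2 the EG arrays are the lowest of the 8, for Cdc25b and Rbl1 the highest, while Mad2l1, Mki67 and Wee1 are highest in E11.5 PGC.

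The genes of mitosis showed no common direction in EG. Of 15 tested in EG against E11.5 PGC, 1 rose and 0 fell (5.57% and 5.61% of all probes), and the median log2 change was -0.23, beside -0.16 for all probes. Both EG arrays lay lower for 8 of 15 (53.3%, against 39.9% of all probes) and higher for 4 (26.7%, against 24.3% of all probes). At Day3 against E11.5 PGC the median was -0.53 (-0.13 for all probes), with both Day3 arrays lower for 7 of 15 (46.7%, against 25.3% of all probes) and higher for 1 (6.67%, against 15.8% of all probes). At Day6 against Day3 the median was 0.19 (-0.05 for all probes), with both Day6 arrays higher for 5 of 15 (33.3%, against 13.7% of all probes) and lower for 2 (13.3%, against 16.9% of all probes). At Day6 against E11.5 PGC the blocked model called 6 of 15 lower (14.3% of all probes) and 3 higher (9.5% of all probes). Both Day6 arrays lay lower for 7 of 15 (46.7%, against 31.0% of all probes) and higher for 4 (26.7%, against 18.6% of all probes).

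Cdc25b, the phosphatase that activates Cdk1 at the start of mitosis, had 50.4 and 24.4 (E11.5 PGC), 85.7 and 45.7 (Day3), 103 and 55.5 (Day6) and 135 and 166 (EG). Cdc25b rose 4.27-fold in EG against E11.5 PGC (log2 change 2.09 ± 0.50 SE, adjusted p = 0.0407, limma). In the blocked model the change was smaller and its error too, 1.62 ± 0.22 (adjusted p = 0.00549, limma). Both EG arrays belong to series A, and against the series A array of E11.5 PGC alone the log2 change was 1.57. Cdc25b rose at Day6 against E11.5 PGC with the block (log2 change 1.11 ± 0.20, adjusted p = 0.0118, limma; 0.236 without the block). The series B value lay about 1 log2 unit below the series A value (-1.05 in E11.5 PGC, -0.91 at Day3 and -0.89 at Day6), and within each series the order was E11.5 PGC, Day3, Day6. Centring on the probes with a value on all arrays ended the call in EG (adjusted p = 0.0511, limma, where the 16 alternatives ran from 0.00549 to 0.233).

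Of the spindle checkpoint genes, Mad2l1 and Ttk were highest on both E11.5 PGC arrays. Mad2l1 had 2334 and 1879.6 (E11.5 PGC), 1546 and 1005 (Day3), 939 and 894 (Day6) and 1139 and 1205 (EG). With the block Mad2l1 fell against E11.5 PGC at Day6 (log2 change -1.19 ± 0.21, adjusted p = 0.011, limma; 0.0566 without the block) and in EG (-1.01 ± 0.23, adjusted p = 0.0248; 0.128 without). Ttk had 502 and 481 (E11.5 PGC), 257 and 280.2 (Day3), 234 and 317 (Day6) and 256 and 278 (EG). With the block Ttk fell against E11.5 PGC at Day6 (log2 change -0.85 ± 0.21, adjusted p = 0.0308, limma; 0.106 without the block) and in EG (-0.80 ± 0.23, adjusted p = 0.0485; 0.0841 without). All 6 arrays of Day3, Day6 and EG lay below both E11.5 PGC arrays for Mad2l1 and for Ttk. Bub1b, another checkpoint protein, had no call, with log2 changes of -0.61 at Day3, -0.26 at Day6 and -0.08 in EG against E11.5 PGC.

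Mki67, the proliferation marker Ki-67, had 405 and 464 (E11.5 PGC), 292 and 307 (Day3), 157 and 246 (Day6) and 270.0 and 279 (EG). Mki67 fell at Day6 against E11.5 PGC with the block (log2 change -1.14 ± 0.22, adjusted p = 0.0137, limma; 0.0626 without the block). The EG change was -0.66 and had no call. Top2a, topoisomerase II alpha, had 1461 and 2075 (E11.5 PGC), 955 and 1326 (Day3), 952 and 1232 (Day6) and 1187 and 1409 (EG). Top2a fell at Day6 against E11.5 PGC with the block (log2 change -0.69 ± 0.20, adjusted p = 0.0492, limma; 0.256 without the block). That call, too, was lost without any 1 of the 8 arrays. Within series A and within series B every later Top2a value lay below E11.5 PGC. Ccnb2, cyclin B2, had 2129 and 1239 (E11.5 PGC), 1225 and 606 (Day3), 916 and 755 (Day6) and 1173 and 1458 (EG). Ccnb2 fell at Day6 against E11.5 PGC with the block (log2 change -0.97 ± 0.25, adjusted p = 0.0361, limma; 0.228 without the block). The EG arrays of Ccnb2 lay on either side of E11.5 PGC array 2. Ccna2, cyclin A2 of S and G2 phase, had 3049 and 2149 (E11.5 PGC), 2354 and 799 (Day3), 1919 and 1103 (Day6) and 1578 and 1535 (EG). Ccna2 fell in EG against E11.5 PGC with the block (log2 change -1.20 ± 0.30, adjusted p = 0.0339, limma; 0.447 without the block). Its series B values at Day3 and Day6 were the lowest of the 8.

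Cdk1, the mitotic kinase itself, was higher on both Day6 arrays than on both E11.5 PGC arrays. It had 1995 and 1841 (E11.5 PGC), 2653 and 2341 (Day3), 3034 and 3589 (Day6) and 2296 and 2744 (EG). Cdk1 rose at Day6 against E11.5 PGC with the block (log2 change 0.78 ± 0.22, adjusted p = 0.0431, limma; 0.122 without the block). This call was lost without any 1 of the 8 arrays. Birc5 (survivin), a subunit of the chromosomal passenger complex, had 2549 and 1309.6 (E11.5 PGC), 3268 and 1329 (Day3), 4561 and 2740.3 (Day6) and 2858 and 3294 (EG). Birc5 rose at Day6 against E11.5 PGC with the block (log2 change 0.95 ± 0.22, adjusted p = 0.0256, limma; 0.333 without the block). The 2 series lay apart for Birc5, with series B minus series A between -1.3 and -0.74 on the log2 scale in the 3 groups with both. Plk1, a kinase of mitotic entry, had 175 and 202 (E11.5 PGC), 143 and 218 (Day3), 276 and 284 (Day6) and 151 and 169 (EG). For Plk1, the log2 change in EG against E11.5 PGC was -0.23 ± 0.30 (adjusted p = 0.663, limma). Its Day6 arrays were the highest of the 8, with a log2 change of 0.57 against E11.5 PGC and no call. Aurka and Cdc20 changed by at most 0.5 between group means, and Aurkb by 0.56.

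Among the G1 cyclins and their kinases the members differed in direction. Ccne2, cyclin E2, fell in EG against E11.5 PGC and was the only 1 of 8 called (12.5%, where 5.61% of all probes fell). Ccne1, its paralogue, did not pass in EG and was higher at Day6 with the block. The class median in EG against E11.5 PGC was -0.22 (quantile normalization gave -0.11), close to -0.16 for all probes. Against Day6 both EG arrays lay lower for 6 of 8 members (75.0%, against 22.8% of all probes) and higher for 0 (23.4% of all probes), with a median of -0.47 beside -0.01.

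Ccne2 had 87.4 and 99.1 (E11.5 PGC), 59.2 and 69.7 (Day3), 70.9 and 72.3 (Day6) and 38.8 and 42.05 (EG). Ccne2 fell 2.31-fold in EG against E11.5 PGC (log2 change -1.20 ± 0.25 SE, adjusted p = 0.0277, limma). Its 2 EG values lay below the other 6. Ccne1 had 606 and 519 (E11.5 PGC), 1062 and 483 (Day3), 1622 and 1085 (Day6) and 1146 and 876 (EG). For Ccne1, the log2 change in EG against E11.5 PGC was 0.84 ± 0.43 (adjusted p = 0.262, limma). Ccne1 rose at Day6 against E11.5 PGC with the block (log2 change 1.24 ± 0.28, adjusted p = 0.0228, limma; 0.132 without the block). Day3 array 1 was at the EG level and Day3 array 2 below both E11.5 PGC arrays. Cdc25a, the phosphatase that activates Cdk2, had 199 and 390.3 (E11.5 PGC), 165 and 302 (Day3), 116 and 388 (Day6) and 91.03 and 84.98 (EG). Cdc25a fell in EG against E11.5 PGC with the block (log2 change -1.07 ± 0.28, adjusted p = 0.0389, limma; 0.139 without the block). Series B lay above series A in every group with both, and the EG arrays lay below all of them.

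Cdk2, the partner of cyclin E, had 31.6 and 78.7 (E11.5 PGC), 56.3 and 143 (Day3), 48.8 and 107 (Day6) and 33.97 and 30.3 (EG). In the blocked model Cdk2 rose at Day3 against E11.5 PGC by 0.85 on the log2 scale (adjusted p = 0.0486, limma; 0.644 without the block), by 0.83 (series A) and 0.86 (series B). Series B lay above series A throughout, and both EG values lay near the series A value of E11.5 PGC. Cdk4 had 2241 and 2125 (E11.5 PGC), 2888 and 1633 (Day3), 2775 and 2377 (Day6) and 2184 and 1928 (EG). For Cdk4, the log2 change in EG against E11.5 PGC was -0.09 ± 0.33 (adjusted p = 0.901, limma). Cdk6 had 31.1 and 39.1 (E11.5 PGC), 33.4 and 48.8 (Day3), 33.5 and 51.8 (Day6) and 28.1 and 29.8 (EG). For Cdk6, the log2 change in EG against E11.5 PGC was -0.27 ± 0.34 (adjusted p = 0.661, limma). Both are partners of D cyclins, and the group means of Cdk4 spanned only 0.32.

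Ccnd3, cyclin D3, had 573 and 482 (E11.5 PGC), 1007 and 546 (Day3), 596 and 662 (Day6) and 403 and 547 (EG). For Ccnd3, the log2 change in EG against E11.5 PGC was -0.16 ± 0.36 (adjusted p = 0.819, limma). Day3 array 1 was the highest of the 8. Ccnd2, cyclin D2, had 21.1 and 30.1 (E11.5 PGC), 72 and 24.7 (Day3), 126 and 15.02 (Day6) and 62.5 and 42.99 (EG). For Ccnd2, the log2 change in EG against E11.5 PGC was 1.04 ± 0.96 (adjusted p = 0.54, limma). In series A it was lowest in E11.5 PGC and highest at Day6, a change of 2.58, and in series B it was highest in E11.5 PGC and lowest at Day6, a change of -1.0. Day6 array 1, where Ccnd2 was highest, was also the array with the highest fibroblast marker sum (5439). Vim, S100a4, Fn1 and Thy1 gave most of that sum (1546, 1335, 1256 and 747). Col1a1 and Col1a2 were highest on this array, but Dcn and Col3a1 were highest on Day3 array 2. The part of the fibroblast markers in the Ccnd2 value was not tested.

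In the Rb and E2F group, E2f1, Chek1 and Wee1 lay lower in EG than in E11.5 PGC and Rbl1 higher, and the fit without a block called none of them. Of 6 genes, 0 were called without the block, where 5.57% of all probes rose and 5.61% fell. An unadjusted p under 0.05 was found for 4 of them, with no share of all probes counted at that threshold. With the block 1 rose and 3 fell, where 9.24% of all probes rose and 14.4% fell. Of the other unblocked settings, the pseudocount and the trended robust variance called E2f1, Wee1 and Rbl1, removal of dim probes and the compared groups alone called Wee1 and Rbl1, and quantile normalization called Rbl1. Leaving out either Day3 array called Wee1, leaving out either Day6 array called Rbl1, and Chek1 was called in none of these. Wee1, the kinase that holds Cdk1 inactive, had 275 and 207 (E11.5 PGC), 157 and 102 (Day3), 105 and 105 (Day6) and 99.02 and 107 (EG). With the block Wee1 fell against E11.5 PGC at Day6 (log2 change -1.19 ± 0.22, adjusted p = 0.0131, limma; 0.0627 without the block) and in EG (-1.39 ± 0.24, adjusted p = 0.011; 0.0503 without). All 6 later arrays lay below both E11.5 PGC arrays, and Day6 and EG did not differ beyond their spread (log2 change of EG over Day6 of -0.03 ± 0.31).

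Chek1, the kinase of the replication checkpoint, had 581 and 456 (E11.5 PGC), 428 and 358 (Day3), 359.9 and 382 (Day6) and 296 and 288 (EG). Chek1 fell in EG against E11.5 PGC with the block (log2 change -0.90 ± 0.22, adjusted p = 0.0301, limma; 0.0997 without the block). E2f1, an activating E2F, had 205 and 185 (E11.5 PGC), 182 and 163 (Day3), 127 and 153 (Day6) and 113 and 100.1 (EG). E2f1 fell in EG against E11.5 PGC with the block (log2 change -0.88 ± 0.23, adjusted p = 0.0359, limma; 0.0764 without the block). Both genes had their highest values in E11.5 PGC and their lowest in EG. Rbl1 (p107), an Rb family member that binds repressor E2Fs, had 27.2 and 24.8 (E11.5 PGC), 34 and 28.5 (Day3), 36.99 and 24.3 (Day6) and 55.3 and 54.8 (EG). Rbl1 rose in EG against E11.5 PGC with the block (log2 change 0.92 ± 0.22, adjusted p = 0.03, limma; 0.0613 without the block). The 2 EG arrays of Rbl1 were nearly equal and above the other 6. Rb1 had 42.1 and 27.2 (E11.5 PGC), 29.9 and 35.2 (Day3), 42.7 and 44.8 (Day6) and 31.3 and 35.3 (EG). For Rb1, the log2 change in EG against E11.5 PGC was -0.03 ± 0.30 (adjusted p = 0.97, limma). Rbl2 (p130) had 209 and 182 (E11.5 PGC), 236 and 197 (Day3), 229 and 193 (Day6) and 237 and 239.9 (EG). For Rbl2, the log2 change in EG against E11.5 PGC was 0.29 ± 0.26 (adjusted p = 0.527, limma). Neither Rb1 nor Rbl2 had a call in any comparison, and their group means spanned 0.43 and 0.29.

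Of the CDK inhibitors, 3 of 5 were measured and none was called in any comparison, with or without the block. Cdkn2a, the locus of p16INK4a and p19ARF, which 1 probe cannot tell apart without its sequence, had 45.02 and 45.1 (E11.5 PGC), 63.02 and 102 (Day3), 47.98 and 51.9 (Day6) and 28.9 and 33.98 (EG). For Cdkn2a, the log2 change in EG against E11.5 PGC was -0.52 ± 0.31 (adjusted p = 0.33, limma). It was higher on both Day3 arrays than on both E11.5 PGC arrays, by 0.83 ± 0.31 on the log2 scale (adjusted p = 0.275, limma), and lowest on the EG arrays. Cdkn2c (p18) had 80.2 and 68.9 (E11.5 PGC), 89.9 and 65.9 (Day3), 81.4 and 61.9 (Day6) and 52.2 and 60.96 (EG). For Cdkn2c, the log2 change in EG against E11.5 PGC was -0.40 ± 0.30 (adjusted p = 0.448, limma). The EG values of Cdkn2c lay below both E11.5 PGC values.

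Cdkn1b (p27) was dim and followed the array series. It had 2.43 and 8.58 (E11.5 PGC), 2.97 and 44.9 (Day3), 3.43 and 23.9 (Day6) and 1.64 with 1 missing value (EG). All 4 series A values lay under 4.24, while all 3 series B values lay above it. By its mean over the arrays the probe was not among the dimmest 25%, so it stayed when those were removed. Because of the missing EG value it was not tested in EG, and the changes at Day3 and Day6 against E11.5 PGC were 1.34 ± 1.49 and 0.99 ± 1.49.

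The offset between the array series touched several members. Series B exceeded series A in all 3 groups that hold both for 12 of 44 members, lay below it in all of them for 17, and had no fixed sign for 15. The offset was over 1 log2 unit in all of these groups for Bub1 (1.02, 2.11 and 3.6), Cdk2 (1.31, 1.34 and 1.13) and Cdkn1b (1.82, 3.92 and 2.8). Bub1, the checkpoint kinase, had 402 and 818 (E11.5 PGC), 115 and 497 (Day3), 37.8 and 457 (Day6) and 298 and 230.1 (EG). Bub1 fell at Day6 against E11.5 PGC with the block (log2 change -2.13 ± 0.55, adjusted p = 0.0355, limma; 0.325 without the block). The Day6 change from E11.5 PGC was -3.41 (series A) and -0.84 (series B), and the groups overlapped when both series were read together. Since both EG arrays belong to series A, EG was set beside E11.5 PGC within series A alone for genes with such an offset: Bub1 differed there by -0.62 and Cdk2 by 0.02.

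**Figure D4:**
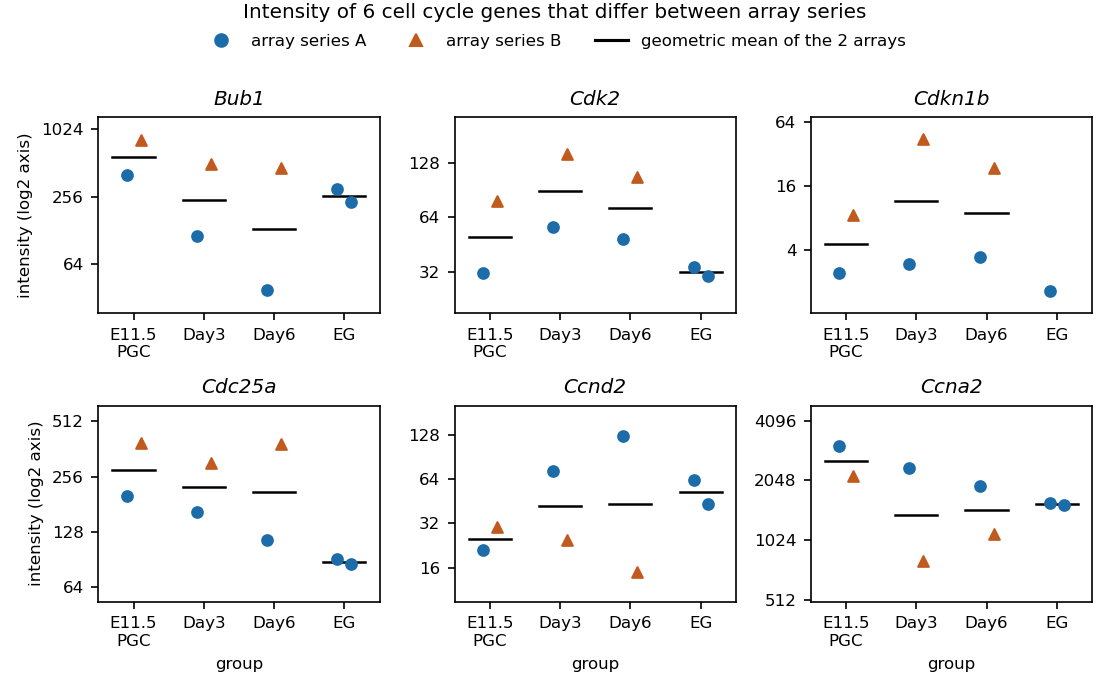
Intensity (log2 axis) of 6 cell cycle genes whose values separate by array series (circles A, triangles B); bars are geometric means of the 2 arrays, and Cdkn1b has 1 EG value. Series B lies above series A for Bub1, Cdk2, Cdkn1b and Cdc25a in E11.5 PGC, Day3 and Day6, below it for Ccna2, and on either side of it for Ccnd2.

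Other genes of the same machinery were read from 3 further lists chosen by name. Of 38 other replication genes tested in EG against E11.5 PGC, 1 rose (2.63%, against 5.57% of all probes) and 6 fell (15.8%, against 5.61% of all probes), with a median of -0.51 beside -0.16 for all probes. Rpa2 and Rpa3, subunits of the single-strand binding complex RPA, fell by 1.98 and 1.69 on the log2 scale (adjusted p = 0.0115 and 0.0392, limma), and Rrm1, the large subunit of ribonucleotide reductase, fell by 1.75 (adjusted p = 0.0186, limma). Rpa2 had 399.8 and 431.5 in EG, against 1674 and 1610 in E11.5 PGC. Prim2, of the primase, and Fen1, the flap endonuclease, fell by 1.5 and 1.11 (adjusted p = 0.0171 and 0.0347, limma). Gins2, a partner of Gins1 in the GINS complex, went the other way and rose by 1.66 (adjusted p = 0.0174, limma). It had 387 and 439 in EG, against 149 and 115 in E11.5 PGC. At Day6 against E11.5 PGC, 1 of 38 rose (2.63%, against 4.34% of all probes) and 2 fell (5.26%, against 4.28% of all probes). The riser was Gins2, by 2.25, and Rfc4 and Prim2 fell by 1.29 and 1.28.

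Of the other mitosis genes, 1 of 37 rose (2.7%, against 5.57% of all probes) and 0 fell (5.61% of all probes) in EG against E11.5 PGC, with 7 at an unadjusted p under 0.05, while 6 fell with the block (16.2%, against 14.4% of all probes). Their median of -0.56 was about as low as that of the other replication genes, and both EG arrays lay lower for 23 of 37 (62.2%, against 39.9% of all probes). At Day6 against E11.5 PGC 0 of 36 were called (9 at an unadjusted p under 0.05), and 10 fell with the block (27.8%, against 14.3% of all probes). The 1 that rose was Pttg1 (securin), with 80.8 and 145 in EG, against 40.3 and 32.5 in E11.5 PGC (log2 change 1.58, adjusted p = 0.0404, limma). Cks1b, the CDK subunit, had 2 probes that disagreed. Its brighter probe had no call and was low only on the series A arrays of Day3 and Day6 (194 and 147.5, against 1131 to 1509 on the other arrays), and its dimmer probe rose by 1.97 in EG against E11.5 PGC (adjusted p = 0.0201, limma).

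Of 33 other regulators tested in EG against E11.5 PGC, 2 rose (6.06%, against 5.57% of all probes) and 6 fell (18.2%, against 5.61% of all probes), with a median of -0.54. At Day6 against E11.5 PGC 3 rose (9.09%, against 4.34% of all probes) and 5 fell (15.2%, against 4.28% of all probes), with a median of -0.51. Ccng1, cyclin G1, a p53 target, had 32.3 and 29.2 (E11.5 PGC), 366 and 408 (Day3), 528 and 604 (Day6) and 367 and 361 (EG). It rose 12.6-fold at Day3, 18.4-fold at Day6 and 11.8-fold in EG (adjusted p = 0.00287, 0.00105 and 0.0013, limma), and it was the only gene of these lists called at Day3 besides the dimmer Cks1b probe. Cdkn1a (p21), a CDK inhibitor and p53 target outside the 49 genes, had 71.6 and 31.1 (E11.5 PGC), 357 and 209 (Day3), 361 and 219 (Day6) and 115 and 122 (EG). It rose by 2.58 at Day6 against E11.5 PGC (adjusted p = 0.0216, limma), and its changes of 2.53 at Day3 and 1.33 in EG did not pass (adjusted p = 0.0526 and 0.132, limma).

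Cdkn1c (p57), an imprinted CDK inhibitor outside the 49 genes, had 221 and 200.4 (E11.5 PGC), 57.9 and 14.45 (Day3), 10.4 and 15.4 (Day6) and 33.6 and 42.2 (EG). It fell by 4.06 on the log2 scale at Day6 and by 2.48 in EG (adjusted p = 0.00979 and 0.043, limma), so p57 moved against p21 at Day6. Cables1, a CDK-binding adaptor, fell by 2.15 at Day6 and 3.02 in EG (adjusted p = 0.00429 and 0.00183, limma). Its values were 11.1 and 12.3 in EG, against 94.7 and 94.8 in E11.5 PGC. Tfdp1, the dimer partner of E2F factors, fell by 1.42 in EG (adjusted p = 0.027, limma), and Atr, the kinase above Chek1, fell by 1.26 (adjusted p = 0.0369, limma). Ccnc, cyclin C, rose by 1.89 at Day6 and 1.36 in EG (adjusted p = 0.0155 and 0.0406, limma).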

How the data were processed

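The deposited values are linear spot intensities per probe, scaled by the authors so that array medians lie between 19.99 and 20.01. Per the labels, aminoallyl aRNA was made from total RNA and coupled to Cy5. How background was corrected, how values were scaled and why cells are missing is not stated in the labels. All 23473 probes were kept, 19524 with a value on all 8 arrays, and missing values stayed missing. The deposited intensity was converted to log2 with no further normalization.

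One symbol was given for 16631 probes and none for 6842, and older symbols were updated through the RefSeq gene table (GRCm38.p6). The 49 genes, their classes, the 3 lists of other cell cycle genes and the 6 marker lists were chosen with earlier results of these data known. Values are given for every member called in a comparison, with or without the array series, and for fixed representatives of each class. Of the other lists, at most 6 called genes per comparison are named, by size of change. For genes with more than 1 probe, the probe with the highest mean was read.

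Comparisons used limma 3.58.1 in R 4.3.3: each probe was fitted over the 4 groups and 8 arrays together, with two-sided moderated tests, and adjusted by Benjamini-Hochberg over every probe measured on both arrays of both groups. The number of arrays limits the precision. The array series block was the first of the alternatives, which also comprised the replicate number as a block, quantile normalization, centring on complete probes, a pseudocount of 1.61, removal of the dimmest 25% of probes, a trended robust variance, the compared groups alone, and leaving out each array. Leaving out an array under the block was added after the data were seen. The model without a block was checked on simulated data in which arrays varied independently. Those data held no offset between array series, so the check does not cover that offset. Promoter words were searched by exact match on both strands.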

Additional observations from a re-analysis of the deposited data

How the results depend on the processing

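No alternative listed here reversed a called change, while the number of members called differed between settings. In EG against E11.5 PGC, 4 members were called, against 17 with the array series as a replicate block, 8 with the replicate number as a block, 8 with a pseudocount, 7 without dim probes, 8 with a trended robust variance and 8 with the compared groups alone (3 by quantile normalization and 3 by centring). Leaving out 1 array gave 0 to 5. At Day6 against E11.5 PGC, 0 were called, against 11 with the array series as a replicate block, 4 with the replicate number as a block, 2 by quantile normalization (Mad2l1 and Wee1), and 3 each with a pseudocount, without dim probes and with a trended robust variance (Mad2l1, Mki67 and Wee1). Leaving out 1 array gave 0 to 2, with Bub1 and Mki67 called without Day6 array 2. At Day3 against E11.5 PGC, 0 were called, against 1 with the array series as a replicate block. No setting called a member at Day6 against Day3 or in EG against Day6. Leaving out 1 array under the block gave 1 to 15 in EG against E11.5 PGC (6 without E11.5 PGC array 2 or either Day3 array), 0 to 8 at Day6 against E11.5 PGC (6 without either EG array) and 0 to 1 at Day3 against E11.5 PGC. That 1 member at Day3 was Wee1, which fell, called without either Day6 array, and not Cdk2. The cause of these differences was not tested.

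Pairing by array series rests on the file names in the labels and on the correlated deviations given with the arrays. The EG arrays, numbered 1 and 2 but both of series A, did not pair with the other groups by number (r = -0.0246, 0.00502 and 0.0611 with E11.5 PGC, Day3 and Day6). With 2 arrays a group, changes under about 0.72 on the log2 scale lay within the median 95% interval of a member. No sample group was large enough to look for a single outlying array.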
